A study of Homo sapiens with 8 samples.

Results

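The 8 noncoding host genes of small nucleolar RNAs (snoRNAs), GAS5, SNHG1, SNHG3, SNHG5, SNHG6, SNHG7, SNHG8 and SNHG12, were followed in 2 diffuse large B cell lymphoma cell lines. They were chosen by symbol, as host transcripts only, and all 8 had a row among the 13700 genes read for HT and the 13036 read for SUDHL6. HT and SUDHL6 are established human B lymphoma lines. Each line was sequenced after 96 hours (day 4) with iEZH, which the series title describes as a small molecule inhibitor of PRC2, and after the same time with the solvent DMSO. The groups were HT with iEZH, HT with DMSO, SUDHL6 with iEZH and SUDHL6 with DMSO, each with 2 libraries, so that there were 8 libraries in 4 groups. The labels give no dose of iEZH and do not say whether the 2 libraries of a group came from separate cultures, so p-values measure only the spread between these libraries, which may be technical.

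PRC2 places methyl groups on lysine 27 of histone H3 through its EZH2 subunit and keeps genes silent. A snoRNA host gene is transcribed and spliced like a messenger RNA gene, but its stable product is cut out of the introns. The snoRNAs released there guide the chemical modification of ribosomal RNA (box C/D snoRNAs, named SNORD, guide methylation, and box H/ACA snoRNAs, named SNORA, guide pseudouridylation). The spliced exons of GAS5 and several SNHG transcripts carry only short reading frames, are bound by ribosomes and are removed by nonsense-mediated decay. Several host genes, GAS5 and SNHG1 among them, begin with a pyrimidine tract of the kind found at the start of ribosomal protein messages, through which growth signals govern translation.

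A RefSeq start, taken by gene symbol, is shown because this pyrimidine tract is a feature described for snoRNA hosts. Whether it is the start of the row measured here was not tested. The windows run from 20 bases before the RefSeq start to 40 bases after it, on the strand of the gene, 5′ to 3′, in the build GRCh38.p14. Capitals mark the longest unbroken run of C and T, and the one nearest to the start where runs tie. Windows were read for 7 hosts. SNHG6 was left out of this step, so its start was not examined and the values for the 7 hosts do not cover it.
GAS5, chr1:173869006-173869065, minus strand: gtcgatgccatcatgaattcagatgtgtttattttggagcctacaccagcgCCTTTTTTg
SNHG1, chr11:62855846-62855905, minus strand: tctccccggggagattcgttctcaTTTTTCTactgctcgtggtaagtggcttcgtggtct
SNHG3, chr1:28505923-28505982, plus strand: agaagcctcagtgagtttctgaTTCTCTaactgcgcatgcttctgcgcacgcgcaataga
SNHG5, chr6:85678694-85678753, minus strand: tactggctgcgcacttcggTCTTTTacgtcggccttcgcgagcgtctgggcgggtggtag
SNHG7, chr9:136728145-136728204, minus strand: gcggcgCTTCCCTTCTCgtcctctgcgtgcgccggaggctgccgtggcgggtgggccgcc
SNHG8, chr4:118278742-118278801, plus strand: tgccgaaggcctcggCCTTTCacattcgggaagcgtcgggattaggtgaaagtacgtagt
SNHG12, chr1:28581834-28581893, minus strand: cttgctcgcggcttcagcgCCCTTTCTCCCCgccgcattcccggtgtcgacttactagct

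The run was longest in SNHG12, with 12 bases beginning 1 base before the RefSeq start. SNHG7 came next with 11 bases, which began 14 bases before the RefSeq start and ended ahead of it. Among 35116 RefSeq windows of the same length, 5.21% held a run of at least 12 and 7.40% a run of at least 11. GAS5 had a run of 8 bases, reached by 22.5% of all windows, and it lay downstream of the RefSeq start, beginning at base 32. This window does not show whether the GAS5 transcript measured here begins with the tract. SNHG1 had 7 bases, reached by 32.9%. SNHG3, SNHG5 and SNHG8 had 6 bases each, reached by 48.5% of all windows. The median was 7 bases over the 7 hosts and 5 over all windows, and SNHG7 and SNHG12 held runs of a length found in fewer than 10% of windows. Runs were counted wherever they lay in the window, so these lengths and shares do not describe a tract at the start itself. The E-box CACGTG, which reads the same on both strands and is the site of the MYC and MAX proteins, occurred in the 300-base promoter of 1 of the 7 hosts, SNHG7, and in 7.26% of all promoters. A match or a missing match describes these letters only.

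Reads per library, per the file headers, numbered 59563321 to 94821806, and levels were deposited as FPKM (fragments scaled to transcript length and sequencing depth). The tables used here hold no read counts by gene, so the depth behind a single host is unknown. Rows spanning under 300 bp, mostly snoRNAs and microRNAs, took 21.0% to 44.4% of the FPKM total in each library, and those that lie inside the hosts are described below. The B cell identity of both lines was in place, with all 8 B cell markers in both tables and a summed level of 2440 to 2694 FPKM with iEZH and 2174 to 2272 with DMSO in HT. In SUDHL6 the same sum was 3872 to 4656 FPKM with iEZH and 3682 to 3764 with DMSO. Of 10 T and NK cell markers, 7 had a row in HT, summing to 3.41 to 4.45 FPKM with iEZH and 1.88 to 2.33 with DMSO, and 0 had a row in SUDHL6. Of 10 myeloid markers 4 had a row in HT, summing to 71.1 to 74.5 FPKM with iEZH and 60.6 to 67.6 with DMSO, mostly CD33 at 55.9 to 70.1 FPKM, and 2 had a row in SUDHL6, summing to at most 2.52 FPKM in any library. Of 10 epithelial and stromal markers 3 had a row in HT, at most 5.80 FPKM in sum, and 0 in SUDHL6. The part of these small differences in the results was not tested. In bulk RNA, fewer cells and less RNA per cell cannot be told apart.

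The hosts were abundant transcripts in both lines, and no change under iEZH was called for any of them. In each line the libraries of the treatments overlapped for 6 of the 8 hosts and lay apart for 2. These were SNHG3 and SNHG5 in HT and GAS5 and SNHG1 in SUDHL6. Such separation was common among all tested genes. In HT 28.5% of genes lay apart with iEZH higher and 23.4% with iEZH lower. In SUDHL6 the shares were 28.9% and 20.6%, so lying apart does not single out these hosts. In HT the 8 hosts ranked between the 78.7th and 99.5th percentile of 13333 rows spanning 300 bp or more. In SUDHL6 they ranked between the 90.5th and 99.4th percentile of 12706 such rows. Together they made up 0.468% to 0.519% of the FPKM of such rows in the HT libraries and 0.329% to 0.377% in the SUDHL6 libraries. In both lines 0 of the 8 were called higher and 0 lower (limma on log2(FPKM + 1), call at an adjusted p of 0.05), and none had an unadjusted p under 0.05. Over all genes the test called 69 of 11321 in HT, 0.609% (0.459% higher and 0.15% lower), and 30 of 11173 in SUDHL6, 0.269% (0.152% higher and 0.116% lower), while 21.4% and 18.8% had an unadjusted p under 0.05. At such background shares a count of 0 among 8 is not set apart from other genes.

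**Figure D1:**
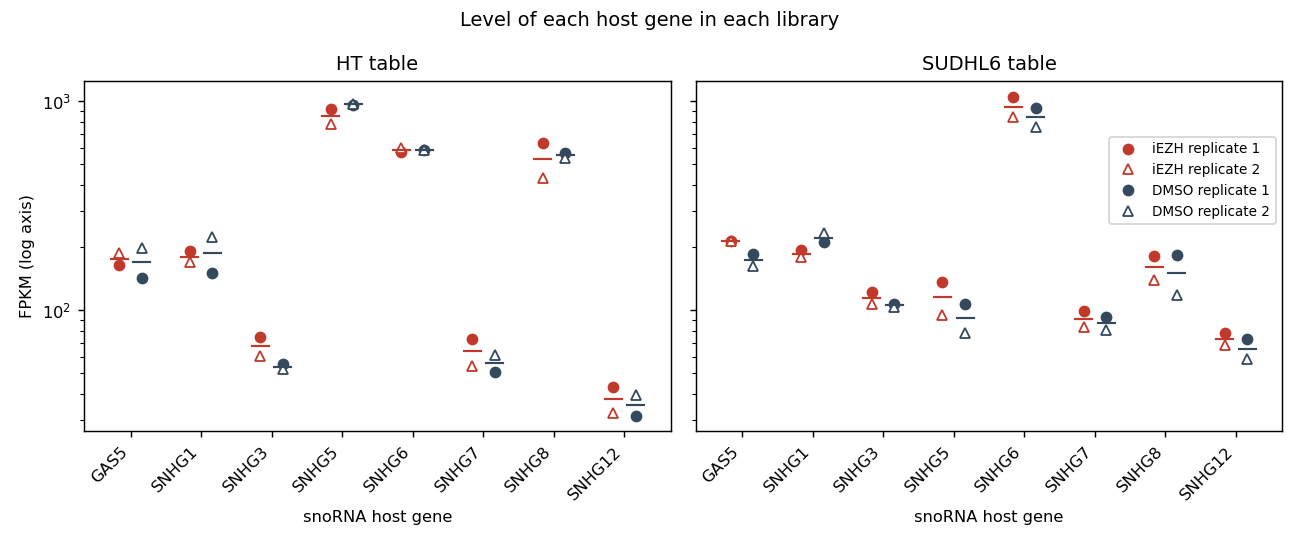
FPKM (log axis) of each of the 8 host genes in each library of HT (left) and SUDHL6 (right), with iEZH in red to the left of DMSO in dark blue, filled circles for replicate 1, open triangles for replicate 2 and short lines for group means. SNHG5 stood at 777 to 976 FPKM in the HT libraries and at 77.9 to 137 in the SUDHL6 libraries, while the 2 treatments lay close together within each line.

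SNHG5 was the host whose place differed most plainly between the lines. It hosts SNORD50A and SNORD50B. With iEZH it stood at 915 and 777 FPKM in HT, against 959 and 976 FPKM in HT with DMSO. With iEZH it stood at 137 and 95.5 FPKM in SUDHL6, against 107 and 77.9 FPKM in SUDHL6 with DMSO. It was thus the highest of the 8 in every HT library, and by group mean stood at place 5 with iEZH and place 6 with DMSO in SUDHL6. The lines were deposited in separate tables with a floor of their own, and how the tables were normalized is not given in the sources used here, so the level itself was not tested between them. Its share of the summed FPKM of the 8 hosts needs no scaling across tables, and that share was 33.6% to 37.7% in the 4 HT libraries and 4.89% to 6.60% in the 4 SUDHL6 libraries.

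SNHG6, host of SNORD87, led in SUDHL6. It stood at 1049 and 837 FPKM there with iEZH, against 929 and 758 FPKM with DMSO, and held 47.5% to 50.5% of the summed host level. In HT it stood at 569 and 599 FPKM with iEZH, against 583 and 586 FPKM with DMSO, and held 21.4% to 25.9%. SNHG8, host of SNORA24, was the third large component in HT, with 18.6% to 23.6% of the sum, and held 7.40% to 9.77% in SUDHL6. The ranges of these shares in the lines did not overlap for SNHG5, SNHG6 or SNHG8.

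The other 5 hosts each held under 15% of the sum in every library. GAS5 held 5.64% to 8.11% in HT and 9.83% to 12.4% in SUDHL6, and SNHG1 held 5.93% to 8.43% in HT and 9.34% to 14.7% in SUDHL6. SNHG3 held 1.95% to 2.81% in HT and 5.70% to 6.50% in SUDHL6. SNHG7 held 1.99% to 2.75% in HT and 4.76% to 5.05% in SUDHL6, and SNHG12 held 1.24% to 1.62% in HT and 3.69% to 3.97% in SUDHL6. Each of the 5 thus had a larger share in all SUDHL6 libraries than in any HT library. A share of a sum falls when another member is large, so these shares are not independent of that of SNHG5.

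**Figure D2:**
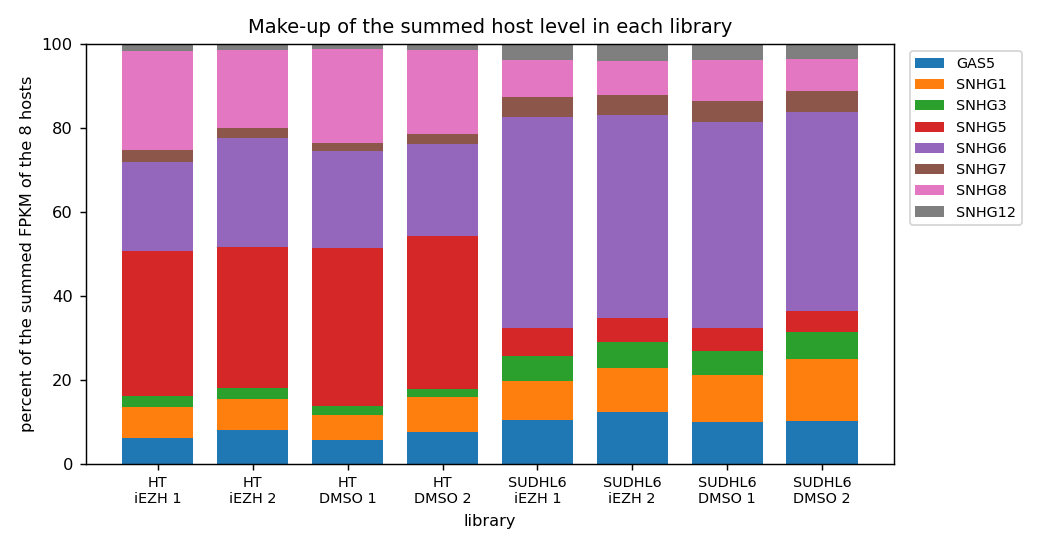
Percent of the summed FPKM of the 8 host genes held by each host (stacked colours) in each library, iEZH before DMSO within a line. SNHG5 filled 33.6% to 37.7% of the HT bars and 4.89% to 6.60% of the SUDHL6 bars, and SNHG6 filled 47.5% to 50.5% of the SUDHL6 bars.

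By mean FPKM in HT with iEZH the order was SNHG5, SNHG6, SNHG8, SNHG1, GAS5, SNHG3, SNHG7 and SNHG12, the highest 22.4 times the lowest. With DMSO it was the same except that SNHG7 stood before SNHG3, and the highest was 27.3 times the lowest. The libraries of neighbours in this order lay apart in 4 of 7 pairs with iEZH and in 5 of 7 with DMSO. The pairs whose libraries overlapped in both groups were SNHG1 with GAS5 and SNHG3 with SNHG7, and SNHG6 overlapped SNHG8 with iEZH as well. In SUDHL6 with iEZH the order was SNHG6, GAS5, SNHG1, SNHG8, SNHG5, SNHG3, SNHG7 and SNHG12. With DMSO SNHG1 stood before GAS5 and SNHG3 before SNHG5. The highest was 12.9 times the lowest with iEZH and 12.8 times with DMSO, and 5 of 7 neighbouring pairs lay apart with iEZH and 4 of 7 with DMSO.

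GAS5, named for its accumulation in growth-arrested cells, carried the largest number of snoRNA rows after SNHG1. Its row covers chromosome 1, 173833038 to 173837125, in hg19, the build of the deposited tables. In HT it had 165 and 187 FPKM with iEZH, against 144 and 199.2 FPKM with DMSO, and the groups overlapped (log2 change 0.06, 95% confidence interval -0.44 to 0.55, limma adjusted p = 0.900). In SUDHL6 it had 216 and 214 FPKM with iEZH, against 186 and 163 FPKM with DMSO, so the groups did not overlap and iEZH was the higher. The SUDHL6 means were 215 ± 1.06 FPKM with iEZH and 174 ± 16.5 FPKM with DMSO (SD, n = 2 each), a log2 change of 0.30 (interval -0.08 to 0.68, limma adjusted p = 0.354).

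SNHG1 (chromosome 11, 62619459 to 62623360), host of a run of SNORD genes from SNORD22 to SNORD31, had the opposite sign in SUDHL6. It had 194 and 180 FPKM there with iEZH, against 212 and 234 FPKM with DMSO, both iEZH libraries below both DMSO libraries. The means were 187 ± 10.3 FPKM with iEZH and 223 ± 15.7 FPKM with DMSO (SD, n = 2 each), a log2 change of -0.25 (interval -0.63 to 0.13, limma adjusted p = 0.429). In HT it had 192 and 170 FPKM with iEZH, against 151 and 225 FPKM with DMSO. The HT groups overlapped, with the DMSO libraries on either side of the iEZH libraries (log2 change -0.03, adjusted p = 0.958). The log2 change of SNHG1 in HT was 0.07 under quantile normalization, and so had no settled sign.

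SNHG3 (chromosome 1, 28832454 to 28837404), host of SNORA73A and SNORA73B, was the 1 host with both iEZH libraries above both DMSO libraries in HT. It had 74.8 and 60.7 FPKM with iEZH, against 55.2 and 52.2 FPKM with DMSO. The HT means were 67.8 ± 10.0 FPKM with iEZH and 53.7 ± 2.12 FPKM with DMSO (SD, n = 2 each), a log2 change of 0.32 (interval -0.05 to 0.69, limma adjusted p = 0.288). In SUDHL6 it had 123 and 108 FPKM with iEZH, against 108 and 104 FPKM with DMSO, and the lower iEZH library lay just under the higher DMSO library (0.12, adjusted p = 0.699). The row of RCC1, a chromatin-bound exchange factor, covers all of the SNHG3 span, so the reads of SNHG3 are uncertain. RCC1 had 92.1 and 70.9 FPKM in HT with iEZH, against 87.5 and 90.1 FPKM with DMSO (-0.13, adjusted p = 0.687), a difference of the other sign than that of SNHG3.

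SNHG5 (chromosome 6, 86386724 to 86388451) was the 1 host with both iEZH libraries below both DMSO libraries in HT, at 846 ± 97.5 FPKM with iEZH and 967 ± 12.5 FPKM with DMSO (SD, n = 2 each). Its HT log2 change was -0.20 (interval -0.62 to 0.23, limma adjusted p = 0.555), and 0.01 under quantile normalization. In SUDHL6 the means were 116 ± 29.5 FPKM with iEZH and 92.5 ± 20.6 FPKM with DMSO (0.32, interval -0.36 to 1.00, adjusted p = 0.578), and the groups overlapped. The SUDHL6 libraries of replicate 1 were above those of replicate 2 by a factor of 1.44 with iEZH and 1.37 with DMSO. These factors were larger than the difference between treatments. Within replicate 1, iEZH stood at 1.28 times DMSO, and within replicate 2 at 1.23 times. With the replicate number as a block, the limma adjusted p in SUDHL6 was 0.0516. What a replicate number stands for is not in the labels.

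The remaining hosts overlapped between treatments in both lines. SNHG6 (chromosome 8, 67834164 to 67837777) had a log2 change of -0.0007 in HT (interval -0.36 to 0.36, adjusted p = 0.998) and of 0.16 in SUDHL6 (interval -0.44 to 0.76, adjusted p = 0.769), and -0.24 in SUDHL6 under quantile normalization. SNHG8 (chromosome 4, 119199916 to 119200978) had 629 and 431 FPKM in HT with iEZH, against 569 and 534 FPKM with DMSO. The 2 iEZH libraries of SNHG8 thus lay on either side of DMSO (-0.08, adjusted p = 0.868). In SUDHL6 it had 183 and 141 FPKM with iEZH, against 185 and 118 FPKM with DMSO (0.12, adjusted p = 0.868).

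SNHG7 (chromosome 9, 139619045 to 139622636), host of SNORA17 and SNORA43, had 73.3 and 54.0 FPKM in HT with iEZH, against 50.6 and 61.0 FPKM with DMSO (0.18, adjusted p = 0.656). In SUDHL6 it had 99.1 and 83.1 FPKM with iEZH, against 93.5 and 80.5 FPKM with DMSO (0.06, adjusted p = 0.875), and -0.03 once libraries were scaled to the same sum over longer rows. SNHG12 (chromosome 1, 28905049 to 28908366), host of SNORA16A, SNORA44, SNORA61 and SNORD99 and the least abundant of the 8, had 43.2 and 32.3 FPKM in HT with iEZH, against 31.4 and 39.5 FPKM with DMSO (0.08, adjusted p = 0.851). In SUDHL6 it had 78.1 and 68.5 FPKM with iEZH, against 72.7 and 58.7 FPKM with DMSO (0.16, adjusted p = 0.666).

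**Figure D3:**
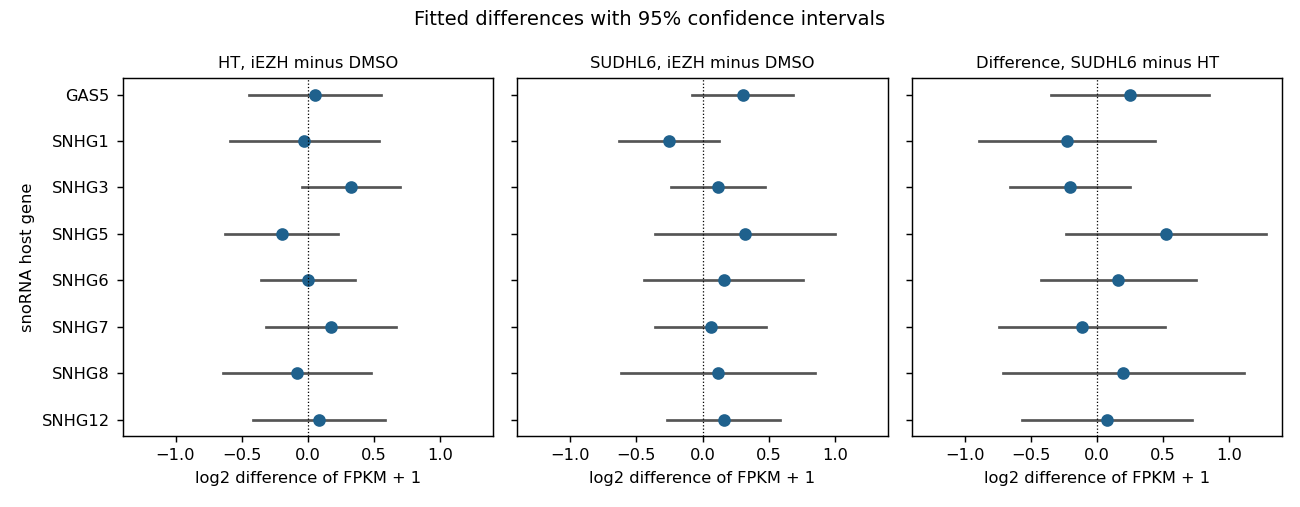
Log2 difference of FPKM + 1 (points) with 95% confidence intervals (lines) for each host, as iEZH minus DMSO in HT (left) and in SUDHL6 (middle), and as the change in SUDHL6 minus the change in HT (right). Every interval crosses 0, and the widest within a line spans 1.47 log2 units, for SNHG8 in SUDHL6.

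As a set, 4 hosts had a log2 change above 0 and 4 below 0 in HT, with a median of 0.03, beside 52.4% of all tested genes above 0 and a median of 0.02. Under quantile normalization all 8 were above 0 in HT, with a median of 0.14. In SUDHL6, 7 were above 0 and SNHG1 below, with a median of 0.14, beside 57% of all tested genes above 0 and a median of 0.04. With libraries of SUDHL6 scaled to the same sum over longer rows, 6 were above 0 with a median of 0.04. These set values rested on single libraries. In SUDHL6, 4 were above 0 (median 0.0123) without iEZH replicate 1, 7 (0.28) without iEZH replicate 2, 7 (0.31) without DMSO replicate 1 and 5 (0.0110) without DMSO replicate 2. In HT, 3 were above 0 (median -0.0772) without iEZH replicate 1, 5 (0.12) without iEZH replicate 2, 2 (-0.0573) without DMSO replicate 1 and 6 (0.25) without DMSO replicate 2. In each line the groups did not overlap, with iEZH higher, for 1 host, GAS5 in SUDHL6 and SNHG3 in HT (28.5% of all genes in HT and 28.9% in SUDHL6) and, with iEZH lower, for 1 host, SNHG1 in SUDHL6 and SNHG5 in HT (23.4% of all genes in HT and 20.6% in SUDHL6). The median absolute log2 change was 0.08 over the hosts and 0.19 over all genes in HT, and 0.16 and 0.17 in SUDHL6. The largest absolute change of a host was 0.32 in both lines, and 28.5% of all genes in HT and 25.6% in SUDHL6 exceeded it. The outermost bounds of the intervals were -0.64 and 0.69 in HT and -0.63 and 1.00 in SUDHL6. Each host has an interval of its own, so these bounds are not a limit of detection. With 2 libraries a group, a change within the interval of a host is not excluded for that host.

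The authors' deposited table, which gives a Tukey test on FPKM, called none of the hosts either. In the authors' deposited table the smallest FDR among the 8 was 0.503 in HT (SNHG3, fold 1.26) and 0.396 in SUDHL6 (GAS5, fold 1.23, p = 0.0733).

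The libraries of the hosts followed the replicate number in SUDHL6. Replicate 1 was above replicate 2 for 8 of 8 hosts with iEZH and 7 of 8 with DMSO, against 51.8% and 51.1% of all 11006 longer genes tested. The summed host level was 2079 and 1727 FPKM with iEZH and 1893 and 1594 FPKM with DMSO, replicate 1 first. In HT the order of the replicates differed between treatments, with replicate 1 above replicate 2 for 6 hosts with iEZH and for 2 with DMSO. The HT sums were 2662 and 2312 FPKM with iEZH and 2542 and 2673 FPKM with DMSO. Within both replicate numbers, iEZH was above DMSO for 6 of 8 hosts in SUDHL6 (44.8% of all genes tested there) and for 1 of 8 in HT (40.8%).

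The effect of iEZH on the hosts was also set against itself between the lines, as the interaction term of 1 fit over 10427 genes that passed the filter in both. None of the 8 differed at an adjusted p of 0.05, as 0.105% of all genes did, and none had an unadjusted p under 0.05, as 11.1% did. SNHG5 had the largest difference, with a log2 change of 0.32 in SUDHL6 and -0.20 in HT, a difference of 0.52 (SE 0.32, interval -0.23 to 1.27, limma adjusted p = 0.638). GAS5 differed by 0.25 (interval -0.35 to 0.84, adjusted p = 0.823) and SNHG1 by -0.23 (interval -0.89 to 0.44, adjusted p = 0.861). The other 5 differed by -0.20 to 0.20, with adjusted p from 0.803 to 0.963, and every interval held values on both sides of 0.

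The snoRNA rows inside the hosts varied far more between libraries than the hosts themselves. In HT 25 rows under 300 bp lay inside 7 of the hosts, and 17 of them stood at the shared floor of the table (0.0613 FPKM) in at least 1 library. In SUDHL6 there were 24 such rows in 7 hosts, 12 of them at the floor (0.0712 FPKM) in at least 1 library. Above the floor they reached 23269 FPKM, for SNORD80 in GAS5 in HT. The number of reads behind such short rows is unknown, so these FPKM are not read as abundance. SNORD29, inside SNHG1, was at the floor in both HT libraries with iEZH, against 5230 and 4302 FPKM with DMSO. In SUDHL6 the same row had 3946 and 4008 FPKM with iEZH, against 7123 and 1625 FPKM with DMSO (adjusted p = 0.911). Its host SNHG1 lay between 151 and 225 FPKM in all HT libraries.

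SNORA16A, inside SNHG12, was also at the floor in both HT libraries with iEZH, against 13.5 and 11.6 FPKM with DMSO. In SUDHL6 it had 23.2 and 25.2 FPKM with iEZH, against 9.92 FPKM and the floor with DMSO (adjusted p = 0.278). SNORA43, inside SNHG7, was at the floor in both SUDHL6 libraries with iEZH, against 5.81 and 4.74 FPKM with DMSO. These 3 rows entered the test only through their DMSO values, and their iEZH values are the same floor with no spread, so their p-values are not read as evidence of a change and no fold is given. Among the other tested rows inside the hosts, 0 were called in HT or SUDHL6. Rows inside GAS5 that were above the floor in every library did not pass either. SNORD47 had 10027 and 4915 FPKM in HT with iEZH, against 1008 and 3497 FPKM with DMSO (adjusted p = 0.200), and SNORD80 had 18896 and 20342 FPKM in SUDHL6 with iEZH, against 6904 and 1775 FPKM with DMSO (adjusted p = 0.188).

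**Figure D4:**
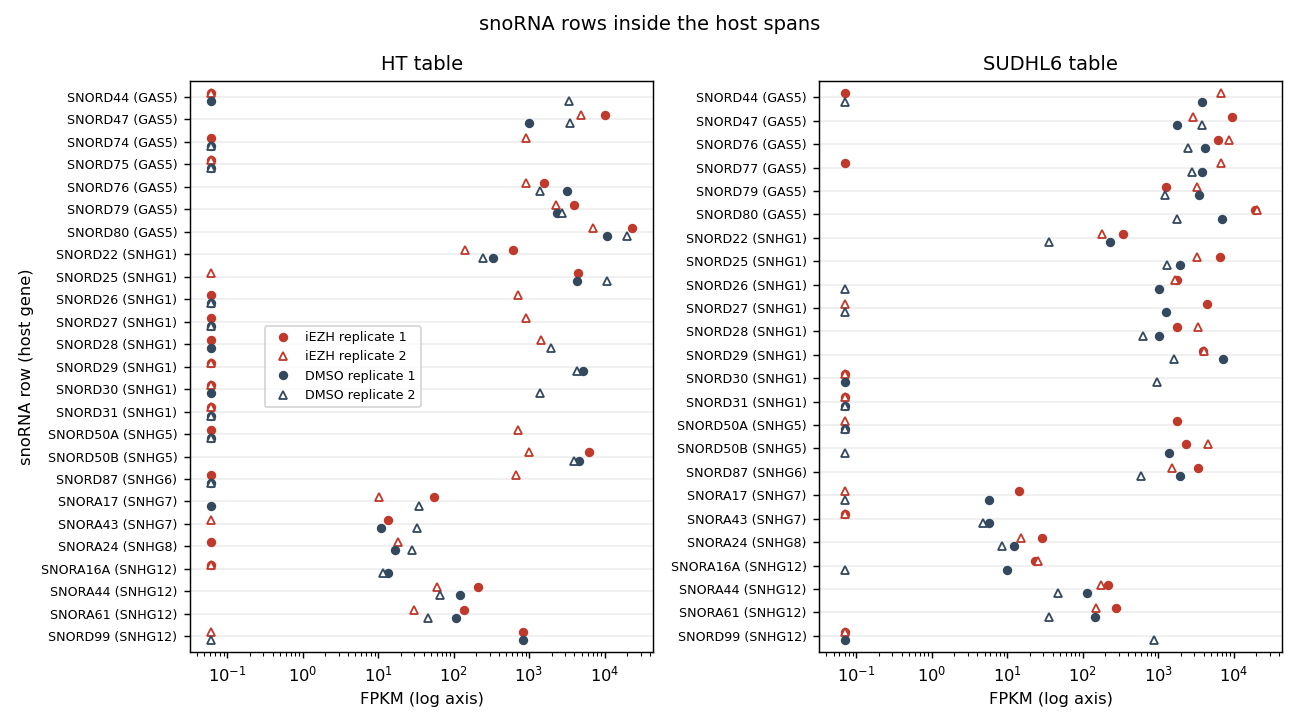
FPKM (log axis) of the snoRNA rows inside the hosts, named with their host in brackets, in HT (left) and SUDHL6 (right), with iEZH in red and drawn above DMSO in dark blue, circles for replicate 1 and open triangles for replicate 2. The column of points at the left edge of each panel is the shared floor, where 17 of 25 HT rows and 12 of 24 SUDHL6 rows stood in at least 1 library.

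Other rows overlapped the hosts only at their edges, apart from RCC1. LOC100506046 shared 42 bp with GAS5, FAM69B 126 bp with SNHG7 and TRNAU1AP 9 bp with SNHG12 in both tables, and C8orf45 shared 120 bp with SNHG6 in HT. None of LOC100506046, FAM69B and TRNAU1AP was called in HT or SUDHL6, with adjusted p from 0.154 to 0.953. C8orf45 lay at 0.130 and 0.162 FPKM in HT with iEZH, against 0.147 and 0.132 FPKM with DMSO, and was too low to be tested.

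No nearest neighbour of the hosts was called among the 15 tested in each line. One neighbour, singled out after its values were seen, was SLC3A2, a subunit of amino acid transporters whose row begins 123 bp beyond the SNHG1 row. SLC3A2 had 86.2 and 71.4 FPKM in HT with iEZH, against 177 and 147 FPKM with DMSO, a log2 change of -1.03 (limma adjusted p = 0.0574, and 0.0252 with rows under 300 bp left out). The HT log2 change of SNHG1 beside it was -0.03. In SUDHL6 SLC3A2 had a log2 change of -0.51 (adjusted p = 0.424).

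Other genes of the snoRNA system, taken by list, gave no calls in either line without the replicate number as a block, and some calls with it. Over all genes, the fit with that block called 2482 of 11321 in HT and 2313 of 11173 in SUDHL6. With that block, 3 of 8 further noncoding hosts were called in HT and 1 of 8 in SUDHL6, all higher, and 0 of 36 protein-coding hosts in HT and 2 of 36 in SUDHL6, both higher. Of the core particle proteins it called 1 of 8 in HT, higher, and 0 in SUDHL6, of 10 assembly factors 1 higher and 1 lower in HT and 0 in SUDHL6, and of 15 decay factors 1 lower in HT and 1 higher in SUDHL6. Among further noncoding hosts, 8 were measured in each line, with 7 above 0 in HT and a median log2 change of 0.24, and 6 above 0 in SUDHL6 and a median of 0.20. The SUDHL6 direction rested on single libraries, with 3 above 0 and a median of -0.19 without DMSO replicate 2, and 4 above 0 and a median of 0.0052 without iEZH replicate 1. In HT, 4 were above 0 with a median of 0.0440 without iEZH replicate 1. DANCR, an antidifferentiation noncoding RNA, had 196 and 155 FPKM in HT with iEZH, against 135 and 101 FPKM with DMSO (0.57, adjusted p = 0.198). EPB41L4A-AS1 had 29.3 and 28.0 FPKM in HT with iEZH, against 19.1 and 23.4 FPKM with DMSO (0.42, adjusted p = 0.179), and 27.4 and 24.2 FPKM in SUDHL6 with iEZH, against 22.0 and 20.1 FPKM with DMSO (0.28, adjusted p = 0.318). SNHG10 had 5.54 and 5.13 FPKM in SUDHL6 with iEZH, against 7.62 and 6.19 FPKM with DMSO (-0.32, adjusted p = 0.308).

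Of the protein-coding hosts, mainly ribosomal proteins and translation factors, 36 were tested in each line. In HT 25 were above 0 with a median of 0.14, and in SUDHL6 30 were above 0 with a median of 0.21, though 8 were above 0 with a median of -0.18 in SUDHL6 under quantile normalization. HSPA8, a constitutive chaperone, had 670 and 490 FPKM in HT with iEZH, against 362 and 416 FPKM with DMSO (0.56, adjusted p = 0.206). In SUDHL6 HSPA8 had 724 and 581 FPKM with iEZH, against 508 and 415 FPKM with DMSO (0.50, adjusted p = 0.313). EIF4G2, a translation initiation factor, had log2 changes of 0.32 in HT (adjusted p = 0.255) and 0.45 in SUDHL6 (adjusted p = 0.229). For HSPA8 and EIF4G2 the groups did not overlap in HT or SUDHL6, with iEZH the higher.

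The proteins that bind the released snoRNAs did not pass either. Of 8 core proteins of the snoRNA particles 6 were above 0 in HT (median 0.18) and 8 in SUDHL6 (median 0.26). Without DMSO replicate 2 the SUDHL6 count was 2 (median -0.0884) and without iEZH replicate 1 it was 4 (0.0043), and without iEZH replicate 1 the HT count was 4 (-0.0223). FBL, the methyltransferase of box C/D particles, had 454 and 328 FPKM in HT with iEZH, against 505 and 450 FPKM with DMSO (-0.30, adjusted p = 0.455), and NOP10 of the box H/ACA particles had a log2 change of 0.35 in SUDHL6 (adjusted p = 0.472). Of 10 assembly factors 4 were above 0 in each line, with medians of -0.02 in HT (0.003 with libraries scaled to the same sum over longer rows) and -0.08 in SUDHL6. Leaving out 1 library turned these medians too, which ranged from -0.0771 to 0.0667 in HT and from -0.27 to 0.13 in SUDHL6. ZNHIT3, which acts in box C/D assembly, had 50.2 and 52.0 FPKM in HT with iEZH, against 64.4 and 70.1 FPKM with DMSO (-0.39, adjusted p = 0.148), and a log2 change of -0.23 in SUDHL6 (adjusted p = 0.372). SHQ1, which acts in box H/ACA assembly, had 0.34 in HT (adjusted p = 0.224) and 0.24 in SUDHL6 (adjusted p = 0.354).

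Of 15 nonsense-mediated decay factors, which degrade spliced host transcripts, 9 were above 0 in each line, with medians of 0.03 in HT and 0.01 in SUDHL6, where the median was -0.02 under median-ratio rescaling and -0.08 with libraries scaled over longer rows. Without 1 library the medians ranged from -0.0495 to 0.0952 in HT and from -0.0211 to 0.0795 in SUDHL6. UPF3A had 20.7 and 18.8 FPKM in HT with iEZH, against 23.3 and 25.7 FPKM with DMSO (-0.30, adjusted p = 0.258), and its relative UPF3B had -0.28 (adjusted p = 0.288). RBM8A, of the exon junction complex, had 23.5 and 22.7 FPKM in SUDHL6 with iEZH, against 18.8 and 16.8 FPKM with DMSO (0.36, adjusted p = 0.207).

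**Figure D5:**
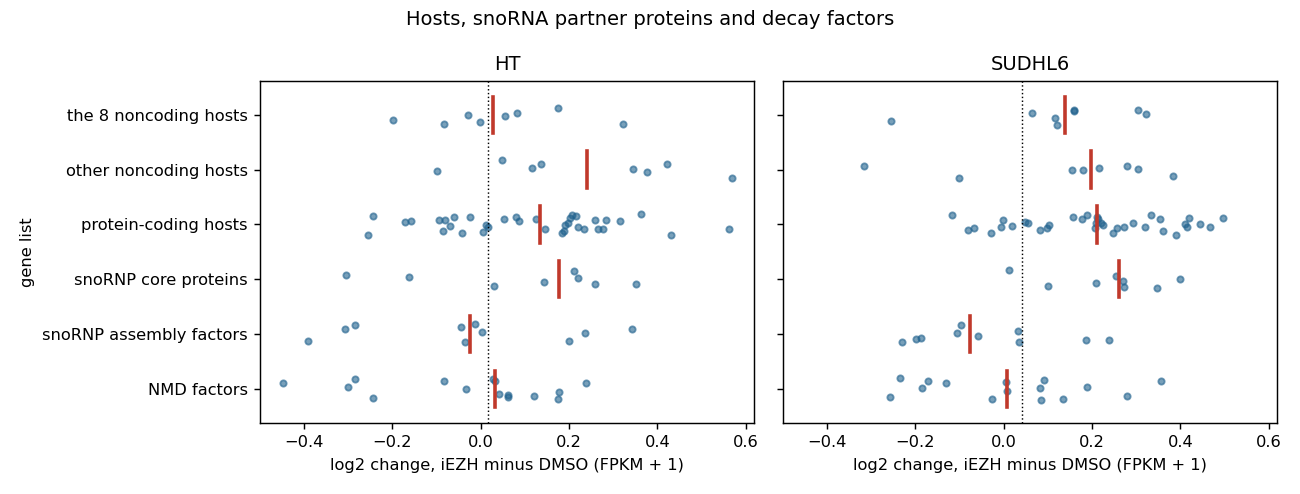
Log2 change of FPKM + 1, iEZH minus DMSO, for each tested gene (blue points, spread vertically at random) of the 8 hosts and 5 related lists in HT (left) and SUDHL6 (right), with red lines for the list medians and a dotted line for the median of all tested genes. The medians of the 8 hosts were 0.03 in HT and 0.14 in SUDHL6, and no plotted gene passed the test without a replicate block.

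The genes whose profile over the 8 libraries, centred within each line, lay nearest to the mean profile of the hosts were GPR89A, RWDD1, SNRNP40, PWP1 and WDR73. Their root mean square difference from it was 0.0301 to 0.0478 log2 units, the smallest among 10301 other longer genes. The hosts themselves lay 0.0627 (SNHG12) to 0.198 (SNHG1) log2 units from their own mean profile. GPR89A and the other nearest genes were picked for a small distance and the hosts were not, so these ranges cannot be compared. The mean profile ranged from -0.11 to 0.14 in HT and from -0.19 to 0.19 in SUDHL6 around the mean of each line.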

How the data were processed

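Per the submitters' processing notes, reads were processed with TopHat 1.4.1 and Cufflinks against hg19; annotation, strand setting and normalization options are not given in the sources used here. The deposited FPKM values, per the file headers, cover genes rated detectable from 10 reads, and the low value that many rows share, called the floor here, is the smallest detection threshold in each table's header. The authors' p-value and FDR (Tukey test) and their fold ratio of mean iEZH to mean DMSO were deposited beside them. In HT 1 gene lacking a numeric value in a library was dropped.

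Within each line, genes reaching 1 FPKM in 2 or more of its 4 libraries were kept, and log2(FPKM + 1) was analysed by limma 3.58.1 under R 4.3.3 (eBayes with trend, two-sided, no replicate block), with Benjamini-Hochberg adjustment over all genes tested. Standard errors and intervals come from that fit. The fits were tested on simulated data with noise independent between libraries, and within each line without rows under 300 bp. That simulation does not cover those short rows within a line, or a spread shared by same-numbered libraries. Named genes are the 8 hosts, overlapping rows, and per list up to 2 with the smallest p where none was called. The hosts, lists, tests and the alternative without rows under 300 bp were chosen with earlier results of these data known. Sequences are RefSeq's, in GRCh38.p14, and gene coordinates those of the tables.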

Additional observations from a re-analysis of the deposited data

How the results depend on the processing

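The count of 0 called hosts held in both lines and for the difference between lines under every alternative run except 1. The alternatives were quantile normalization, median-ratio rescaling, scaling over rows of 300 bp or more, leaving those under 300 bp out, the filter dropped or raised to 5 FPKM, a pseudocount of 0.1 or 0.5, robust eBayes, eBayes with no trend, 1 fit of both lines, the replicate block and leaving out each library (0 to 0 calls). The exception was the replicate block with rows under 300 bp left out. It called 1 host in HT (SNHG3, adjusted p = 0.0181), 2 in SUDHL6 (GAS5, 0.0237, and SNHG5, 0.0110) and 1 for the difference between lines (SNHG5, 0.0266). There it also called, of the further noncoding hosts, 4 higher in HT and 3 higher and 1 lower in SUDHL6; of 36 protein-coding hosts, 7 higher and 1 lower in HT and 11 higher in SUDHL6; and of 8 core proteins, 1 higher and 1 lower in HT and 4 higher in SUDHL6. Of assembly factors it called 1 higher and 3 lower in HT and 1 higher and 1 lower in SUDHL6, and of decay factors 3 lower in HT and 2 higher and 2 lower in SUDHL6. Over all genes it called 3743 of 11164 HT and 3780 of 11006 SUDHL6 genes. How many genes it called for the difference between lines is not given here, so the SNHG5 call there is not set apart from other genes. With the block and all rows the smallest adjusted p of a host was 0.0646 in HT and 0.0516 in SUDHL6. What a shared replicate number stands for is not in the labels, though deviations of same-numbered libraries correlated across genes at 0.62 in HT and 0.73 in SUDHL6. Over all genes, the count of 69 HT calls ranged from 12 without the filter to 3743, and that of 30 SUDHL6 calls from 2 without rows under 300 bp to 3780.

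Several signs changed. Under quantile normalization the log2 changes in HT were 0.0658 for SNHG1, 0.0080 for SNHG5, 0.18 for SNHG6 and 0.0750 for SNHG8, that of SNHG6 in SUDHL6 was -0.24, and the difference between lines of SNHG6 was -0.42. With libraries scaled over rows of 300 bp or more they were 0.0278 for SNHG6 in HT, -0.0314 for SNHG7 in SUDHL6 and -0.0443 for the difference of SNHG12. Leaving out each library in turn gave HT log2 changes of -0.18 to 0.29 for GAS5, -0.32 to 0.26 for SNHG1, -0.0373 to 0.0359 for SNHG6, -0.0414 to 0.39 for SNHG7, -0.35 to 0.19 for SNHG8 and -0.12 to 0.29 for SNHG12. In SUDHL6 it gave -0.0028 to 0.32 for SNHG6, -0.0619 to 0.19 for SNHG7 and -0.20 to 0.44 for SNHG8. For the difference between lines it gave -0.51 to 0.0628 for SNHG1, -0.0021 to 0.32 for SNHG6, -0.33 to 0.11 for SNHG7, -0.12 to 0.52 for SNHG8 and -0.13 to 0.28 for SNHG12. The cause was not tested. GAS5, SNHG1, SNHG3, SNHG5 and SNHG12 in SUDHL6 and SNHG3 in HT kept their sign under every alternative run.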

Other observations

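Some snoRNA rows inside the hosts carried exactly the same FPKM as another in the same library. In HT with iEZH, replicate 2, 4 of the 16 rows above the floor shared a value with another: SNORD74 (in GAS5) and SNORD27 (in SNHG1) both stood at 918 FPKM, and SNORD26 (in SNHG1) and SNORD50A (in SNHG5) both at 716 FPKM. In SUDHL6 with iEZH, SNORD26, SNORD28 and SNORD50A all stood at 1793 FPKM in replicate 1, and SNORD44 and SNORD77 both at 6705 FPKM in replicate 2. In SUDHL6 with DMSO, replicate 1, 4 of 20 rows above the floor shared a value, and no rows did so in the other 4 libraries. Rows that shared a value had the same span. It was 76 bp for SNORD26, SNORD28 and SNORD50A, 73 bp for SNORD27 and SNORD74, and 62 bp for SNORD44 and SNORD77. In HT with iEZH, replicate 2, SNORD28 stood at 1433 FPKM, beside 716 for SNORD26. Whether few reads lie behind these values was not tested, as read counts by gene were lacking.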
